A study of Rattus norvegicus with 158 samples.

Results

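Respiratory complex I subunit genes were followed here in rat thigh muscle across 21 compounds. The genes were taken by name, as all symbols that begin with Nduf, one of the letters a, b, c, s or v, and a digit, which leaves out the Ndufaf assembly factors. Of 14217 genes measured, 35 met this rule, each read by its single-symbol probe set with the highest mean over all arrays. No filter on low values was applied, so all 35 entered every test. They had 38 probe sets in all, because Ndufa7, Ndufa9 and Ndufv3 each had a second, dim one. The rat gene table holds 47 symbols of this form, and the 12 others were not analysed here. Near-copies of Ndufb3, Ndufb4 and Ndufb11 are among those 12, so the values of these 3 genes are uncertain. The rule also takes Ndufa4 and Ndufa4l2, which keep the name but are not complex I subunits, since the Ndufa4 protein belongs to complex IV. The other 33 are subunits.

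Complex I is the first enzyme of the respiratory chain in the inner mitochondrial membrane. It takes electrons from NADH, passes them through a flavin and a row of iron-sulphur clusters to ubiquinone, and pumps protons. Its arm in the matrix carries the flavin and iron-sulphur (N) part and the ubiquinone (Q) part, and its membrane arm carries the pump. Mitochondrial DNA encodes the core subunits of the membrane arm. Nuclear genes, the ones followed here, encode the core of the matrix arm and all accessory subunits, which hold the enzyme together and are needed for its assembly. Muscle fibres that work by oxidation are rich in mitochondria and in these transcripts.

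Thigh muscle was taken from male Sprague-Dawley rats bought at 6 to 8 weeks of age, with 1 array per sample after 3 d or 5 d. Treated rats received 1 of the 21 compounds each day by gavage at 1 dose, between 47 and 2500 mg/kg, and gave 122 arrays. Controls received the vehicle alone and gave 36 arrays, 18 for Water, 12 for CMC and 6 at 5 d for CMC/SDS/Povidone. The Water controls served 9 compounds and the CMC controls 12, no compound was given in CMC/SDS/Povidone, and compounds of 1 vehicle shared their controls. The compounds described most closely were Dicyclomine (645 mg/kg in Water, 2 arrays at 3 d and 2 at 5 d), Etidronate (1005 mg/kg in Water), Trimethadione (535 mg/kg in Water), Atenolol (1000 mg/kg in CMC), Glyburide (1500 mg/kg in CMC, 2 arrays at 3 d and 3 at 5 d) and Levosulpiride (1200 mg/kg in CMC), with 3 arrays per time unless given. Changes are log2 values of treated minus vehicle controls, and levels are log2 values whose height is not comparable between genes. In whole muscle, fewer fibres of a type and less RNA per fibre cannot be told apart.

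The labels give 7 days of RNA extraction, which are called extraction batches A to G. For 8 CMC compounds no CMC control lay in their batches: Glyburide, Atenolol, Levosulpiride, Guanethidine, Chlorpropamide, Pentoxifylline, Buspirone and Flunarizine. All 30 arrays of batch D were treated. RNA quality was read as the difference between the 3' and 5' probe sets of Gapdh, a glycolytic enzyme. This difference lay between 0.10 and 0.28 in the controls and exceeded 1 on 3 arrays, all of batch D. Its median was 0.20 in the controls and 0.35 in batch D, above every control. The mean of the skeletal muscle fibre markers lay between 14.03 and 14.26 in the Water controls. It was lowest, at 13.27, on an array of Glyburide, a compound given in CMC and not in Water.

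Promoters show what letters the members share outside the readout. RefSeq sequences (GRCr8, 250 bases before to 50 after the start) were at hand for 33 of the 35 members, and 5 motifs of factors known to bind genes of oxidative metabolism were searched on both strands. None of the motifs contains another. The YY1 motif AANATGGCG was in 33.3% of the members' promoters and in 3.01% of all 33469 promoters. The ETS motif CCGGAAG was in 21.2% against 8.75%. The NRF1 motif, GCGCA, any base, then GCGC, was in 18.2% against 4.25%. The CCAAT box CCAAT was in 33.3% against 37.5%, and the ERR motif CAAGGTCA was in 0 of 33 members against 1.52% of all. These matches are a description of the letters and not of binding. The promoters of 3 genes with a large fall described below and of Ndufs6, the 1 member higher beside them, are shown to set them side by side, with the motifs in capitals on either strand.
Ndufs8 (chr1:210573649-210573948, minus strand): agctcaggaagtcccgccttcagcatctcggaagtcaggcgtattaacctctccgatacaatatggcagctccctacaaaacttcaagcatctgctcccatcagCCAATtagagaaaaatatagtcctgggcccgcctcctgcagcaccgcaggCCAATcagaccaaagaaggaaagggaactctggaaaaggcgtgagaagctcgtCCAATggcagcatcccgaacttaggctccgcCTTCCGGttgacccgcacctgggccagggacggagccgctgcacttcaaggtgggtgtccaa
Ndufs1 (chr9:72073556-72073855, minus strand): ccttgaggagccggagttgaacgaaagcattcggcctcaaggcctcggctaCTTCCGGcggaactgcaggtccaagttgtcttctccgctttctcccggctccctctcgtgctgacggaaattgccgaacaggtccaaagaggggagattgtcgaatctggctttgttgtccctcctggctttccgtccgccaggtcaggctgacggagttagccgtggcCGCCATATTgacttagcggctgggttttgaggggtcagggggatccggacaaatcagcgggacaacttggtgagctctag
Ndufb8 (chr1:253362887-253363186, minus strand): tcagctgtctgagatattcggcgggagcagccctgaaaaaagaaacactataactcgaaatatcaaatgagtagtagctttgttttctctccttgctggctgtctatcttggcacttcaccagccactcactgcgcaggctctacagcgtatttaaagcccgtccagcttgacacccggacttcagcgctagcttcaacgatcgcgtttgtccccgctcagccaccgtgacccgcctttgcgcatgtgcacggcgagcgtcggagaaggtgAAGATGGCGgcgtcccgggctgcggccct
Ndufs6 (chr1:31797150-31797449, plus strand): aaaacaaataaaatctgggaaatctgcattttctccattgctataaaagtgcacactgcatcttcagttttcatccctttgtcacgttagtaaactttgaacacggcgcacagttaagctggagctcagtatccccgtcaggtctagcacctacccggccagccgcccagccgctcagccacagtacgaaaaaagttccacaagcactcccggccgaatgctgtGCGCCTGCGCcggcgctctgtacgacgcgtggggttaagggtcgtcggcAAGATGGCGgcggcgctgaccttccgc
Ndufs8 held an ETS motif and 3 CCAAT boxes, Ndufs1 an ETS and a YY1 motif, Ndufb8 a YY1 motif, and Ndufs6 an NRF1 and a YY1 motif. Of the 8 genes called lower with Dicyclomine, Ndufs1, Ndufb8 and Ndufc1 held the YY1 motif, and Ndufb5 held none of the 5 motifs.

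In the controls the members were steady, more so under Water than under CMC. The mean of the 35 members lay between 11.82 and 12.12 on the 18 Water arrays (SD 0.09) and between 11.42 and 12.14 on the 12 CMC arrays (SD 0.21). Single members had SDs from 0.05 (Ndufb4) to 0.26 (Ndufa4l2) in the Water controls. The lowest CMC arrays were replicate 2 and replicate 5 at 5 d and replicate 4 at 3 d, at 11.42, 11.65 and 11.66. Time alone left little trace in the members. Between 3 d and 5 d in CMC and Water controls, 0 of 35 members and 0 of all genes passed an adjusted p of 0.05 (limma), and 0 members had an unadjusted p under 0.05. The median change was -0.03, with single members from -0.12 to 0.06.

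**Figure D1:**
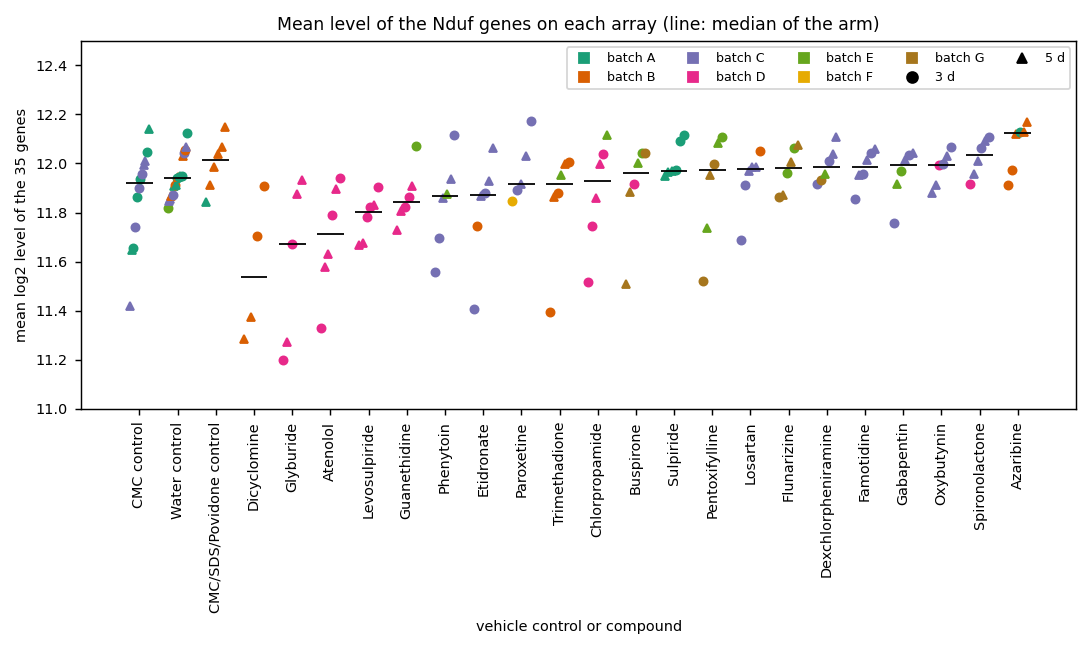
Mean log2 level of the 35 Nduf genes on each array (vertical axis) in each vehicle control or compound (horizontal axis); circles are 3 d, triangles 5 d, colours the extraction batches and lines the medians. The 5 d arrays of Dicyclomine, at 11.37 and 11.28, lie below all 18 Water controls, which span 11.82 to 12.12.

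The members rose and fell together from animal to animal. Over all arrays, with each group's mean removed, the 595 pairs of members had a median correlation of 0.59, from -0.14 for Ndufb8 with Ndufs4 to 0.95 for Ndufa8 with Ndufs1. The points share the normalization, the amount of muscle and the RNA quality of each sample, and no test was made. Over the 149 arrays of groups with no Gapdh difference above 1, the median was 0.67, the range ran from 0.23 for Ndufa4l2 with Ndufb4 to 0.92 for Ndufb7 with Ndufs8, and Ndufb8 with Ndufs4 was at 0.43. Ndufs8, a core subunit with iron-sulphur clusters in the Q part, followed the mean of the other members most closely (0.95), before Ndufv1, the subunit that binds NADH and the flavin (0.89), and Ndufa11 (0.89). Ndufs4, an accessory subunit needed for a stable N part, followed it least (0.31), and Ndufa4l2 was next (0.48). Over the 149 arrays Ndufs4 was at 0.67 and Ndufa4l2, at 0.54, was lowest. The values of other genes and lists that follow are over all arrays and were not computed over the 149. Of the other genes, those most like the mean of the members were Acot13, a mitochondrial thioesterase (0.92), Atp5po of ATP synthase (0.90), Cyc1, cytochrome c1 of complex III (0.88), Cox5b of complex IV (0.87), Bola3 (0.87), Kgd4 (0.87), Pnkd (0.86), Atp5pf (0.86), Cox6b1 (0.86) and Atp5f1c (0.85). Complexes II, III and IV and ATP synthase had medians of 0.75, 0.73, 0.76 and 0.74, the complex I assembly factors 0.61 and the regulators of mitochondrial biogenesis 0.28. Among those regulators the highest was Esrra, which encodes the oestrogen-related receptor alpha (0.78). Slow fibre genes had a median of 0.46, fast fibre genes 0.11 and fat cell genes -0.30.

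Which compounds changed complex I transcripts was asked against the controls of the same vehicle with time as a covariate. Called genes had a fold of at least 1.5 and a limma p, adjusted by Benjamini-Hochberg across the genes, of at most 0.01, and a second rule took an adjusted p of 0.05 or less at any fold. Members were called in 4 compounds, always lower: 8 of 35 with Dicyclomine (2.76% of all genes were called lower), 2 with Atenolol (2.97%), 1 with Glyburide (2.86%) and 1 with Levosulpiride (3.54%). No member was called in the other 17 compounds. All genes called there came to 4.69% with Guanethidine, 3.17% with Chlorpropamide and 2.48% with Etidronate, and to 0.809% or less with each of the rest. Ndufb8, an accessory subunit of the distal membrane arm, was called in 3 compounds and Ndufa6, a matrix arm subunit that binds acyl carrier protein, in 2. Ndufs3, Ndufa12, Ndufc2, Ndufs1, Ndufb5, Ndufc1 and Ndufs8 were called in 1 each, and 26 members in none.

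**Figure D2:**
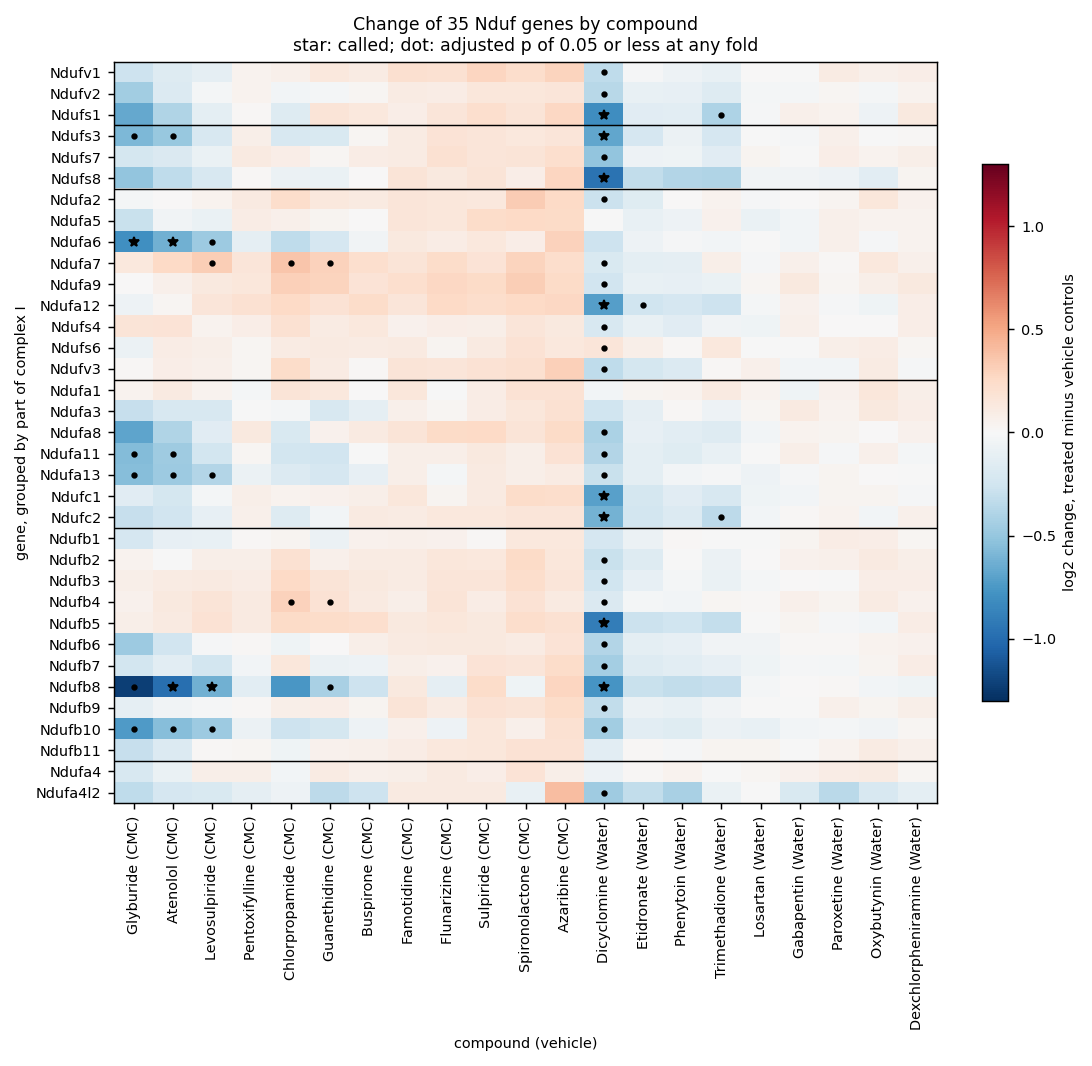
Log2 change (colour, treated minus vehicle controls) of each of the 35 genes (rows, grouped by part of complex I, the last 2 rows being the genes that are not subunits) with each of the 21 compounds (columns, by vehicle); stars mark called genes and dots an adjusted p of 0.05 or less at any fold. Dicyclomine has 8 stars, and the remaining 4 lie on Ndufb8 and Ndufa6 with Glyburide, Atenolol and Levosulpiride.

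Dicyclomine, an antimuscarinic drug, went with lower levels of nearly the whole complex. Of 35 members, 34 were below 0, with a median change of -0.33 against 0.02 for all genes, and 33 were below 0 after centring each array on its median. By the second rule 27 were lower, where 8.18% of all genes were, and 1, Ndufs6, was higher, where 9.84% were. The called falls came from every part of the enzyme: 1 of 3 measured core genes of the N part, 2 of 3 of the Q part, 1 of 9 accessory genes of the matrix arm, 2 of 7 of the proximal and 2 of 11 of the distal membrane arm.

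In the matrix arm core, Ndufs8 lay between 10.86 and 11.56 in the Water controls (median 11.23, n = 18). With Dicyclomine it was at 10.50 and 10.89 at 3 d and at 9.89 and 9.75 at 5 d. Both 5 d arrays were below all controls, and 1 array at 3 d was inside the control range. The change of Ndufs8 was -0.96 ± 0.13 (SE, n = 4 against 18, limma adjusted p = 3.39e-05). Ndufs1, the largest core subunit with several iron-sulphur clusters, lay between 11.66 and 12.18 in the controls (median 11.83) and at 11.43, 11.83, 10.60 and 10.32 with Dicyclomine. The 2 lowest values were the 5 d arrays, and the change of Ndufs1 was -0.81 ± 0.15 (SE, adjusted p = 0.000504). Ndufs3, a core subunit of the Q part, lay between 12.12 and 12.34 in the controls (median 12.23) and at 11.73 and 12.18 at 3 d and 11.26 and 11.07 at 5 d. Its change was -0.68 ± 0.10 (SE, adjusted p = 8.13e-05), and 1 array at 3 d was inside the control range. Ndufs7, a Q part subunit with an iron-sulphur cluster, changed by -0.51 (adjusted p = 0.000821) and Ndufv1 and Ndufv2 of the N part by -0.34 and -0.36, below the fold that a call needs but past the second rule.

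Among accessory subunits, Ndufb5 of the distal membrane arm lay between 12.80 and 13.14 in the Water controls (median 12.92) and at 12.30, 12.75, 11.63 and 11.44 with Dicyclomine, the first pair at 3 d. All 4 treated arrays of Ndufb5 were below all 18 controls, and its change was -0.90 ± 0.13 (SE, adjusted p = 4.74e-05). Ndufa12, at the outer side of the matrix arm, lay between 12.13 and 12.55 in the controls (median 12.31) and at 11.76, 12.07, 11.40 and 11.19 with Dicyclomine. Ndufc1, of the proximal membrane arm, lay between 11.85 and 12.23 (median 12.03) in the controls and at 11.63, 11.84, 10.92 and 10.88 with Dicyclomine. The treated arrays of Ndufa12 and Ndufc1 also lay below every control. Their changes were -0.72 ± 0.09 (SE, adjusted p = 1.23e-05) and -0.71 ± 0.10 (SE, adjusted p = 7.9e-05). Such a complete separation was seen for these 3 members and for 1.03% of all genes.

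Ndufc2, which sits beside Ndufc1, lay between 12.03 and 12.48 in the controls (median 12.22) and at 11.65, 12.16, 11.35 and 11.33 with Dicyclomine (change -0.61 ± 0.09, SE, adjusted p = 0.000103). Ndufb8 lay between 10.24 and 10.83 in the controls (median 10.54) and at 10.08, 10.54, 9.39 and 9.20 with Dicyclomine (change -0.76 ± 0.14, SE, adjusted p = 0.000556). For both genes 1 array at 3 d was at the level of the controls. Ndufs6, a zinc-binding accessory subunit that joins late in assembly, went the other way, from 12.37 to 12.64 in the controls (median 12.49) and at 12.72, 12.51, 12.73 and 12.66 with Dicyclomine. All but 1 of these 4 values were above all controls, the change was 0.16 ± 0.05 (SE, adjusted p = 0.0408), and with extraction batch as a block it was 0.11 (adjusted p = 0.412). The members whose change missed the second rule were Ndufa1 (-0.04), Ndufa3 (-0.25), Ndufa4 (-0.06), Ndufa5 (-0.005), Ndufa6 (-0.27), Ndufb1 (-0.22) and Ndufb11 (-0.13).

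**Figure D3:**
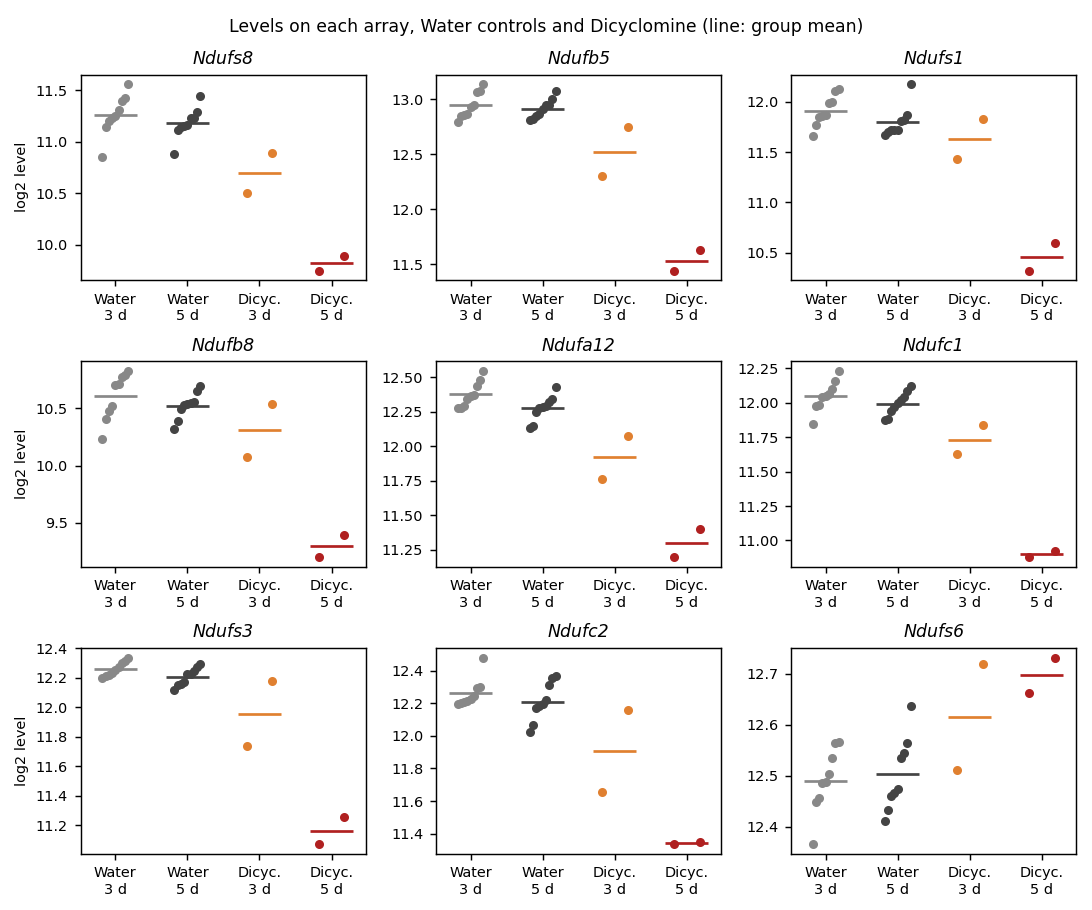
Log2 level (vertical axis, scaled per gene) of the 8 called genes and of Ndufs6 on each array of the Water controls and of Dicyclomine at 3 d and 5 d (horizontal axis); points are arrays and lines group means. For the 8 called genes both 5 d points lie below all controls, as Ndufs8 at 9.89 and 9.75 shows, while those of Ndufs6 lie above them.

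All 4 Dicyclomine arrays were from batch B. With batch as a block in a fit of all arrays, 5 members were called lower (Ndufa12, Ndufb5, Ndufc1, Ndufs3 and Ndufs8), where 1.97% of all genes were. Against the 5 Water controls of batch B alone, the median change of the members was -0.37, 34 of 35 were below 0 and 29 had an unadjusted p under 0.05, but 0 members and 0 of all genes were called (limma). Against the 4 Water controls of the same study, the median was also -0.37, with 19 members at an unadjusted p under 0.05 and none called. Both sets of controls held Water control 5 d replicates 4, 5 and 9, so the 2 medians are not independent. The study's control at 3 d was of batch E. The Ndufs8 change was -0.98 and -0.88 in these 2 comparisons and that of Ndufb5 -0.94 and -0.97, and the Ndufb5 levels of the batch B controls, 12.85 to 13.08, were again above all treated arrays.

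The fall was deeper at 5 d than at 3 d. At 3 d no member was called (0.682% of all genes were, in either direction), and the median change was -0.15. Without replicate 2 at 3 d, 3 members were called there and the median was -0.23, and without replicate 1 none was and the median was -0.04. At 5 d, 14 members were called lower (2.53% of all genes were), and the median was -0.57. On 5 d arrays alone, 31 of 35 members lay below every Water control, as 6.06% of all genes did. The time by treatment interaction passed an adjusted p of 0.05 for 14 members, all with a lower change at 5 d, and for 0.710% of all genes in that direction. Ndufb5 changed by -0.42 at 3 d and -1.38 at 5 d (interaction -0.96 ± 0.15, SE, limma adjusted p = 0.000752). Ndufs1 changed by -0.28 and -1.34 (interaction -1.06 ± 0.19, SE, adjusted p = 0.00228). The interaction was -0.77 for Ndufc1, -0.74 for Ndufs3 and -0.68 for Ndufs7. Ndufb2, a small subunit of the distal membrane arm, was at -0.001 at 3 d and -0.57 at 5 d (interaction adjusted p = 0.00198). Each time rests on 2 treated arrays, and where 1 is left out the other is assumed to vary like the rest of the groups. Without either of them in turn, the count at 5 d was 15 or 9, and without each of the 4 treated arrays in turn, the interaction count was between 6 and 16 members.

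**Figure D4:**
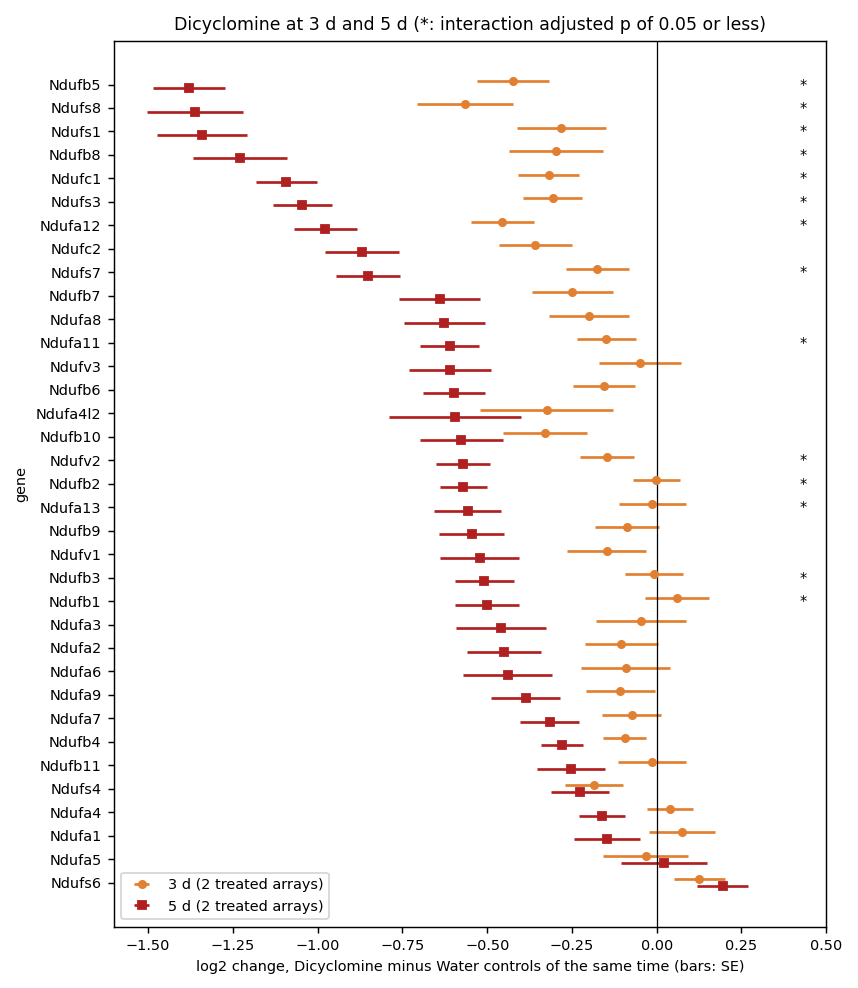
Log2 change with Dicyclomine against the Water controls of the same time (horizontal axis, bars are SE) for each of the 35 genes (vertical axis, in order of the 5 d change); circles are 3 d, squares 5 d and asterisks an interaction at an adjusted p of 0.05 or less. The 5 d changes run from -1.38 for Ndufb5 to 0.20 for Ndufs6, with a median of -0.57 against -0.15 at 3 d.

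Other lists of mitochondrial genes held from 0 to 3 genes called lower each under Dicyclomine. Of all 14217 genes, 2.76% were called lower and 410 genes were called higher. Of 17 regulators of mitochondrial biogenesis, 3 were called lower and 1 higher, with a median of -0.04. The lower ones were Perm1, a muscle regulator that acts with the PGC-1 coactivators (-1.57 ± 0.215, SE, limma adjusted p = 4e-05), Ppargc1a (-0.90) and Ppargc1b (-0.80), the genes of PGC-1 alpha and beta. Perm1 was at 7.93 and 10.09 at 3 d and 8.98 and 8.49 at 5 d, where controls lay between 10.06 and 10.85. Its lowest level was on 1 array at 3 d, while the other 3 d array lay inside the control range. A difference in time from the complex I genes cannot be read from these levels. Ppargc1a was at 6.84 and 7.71 at 3 d and 7.77 and 7.27 at 5 d, against 7.69 to 9.12 in the controls. Polrmt, the RNA polymerase of mitochondria, was higher by 0.66. Of 17 measured assembly factors, 1, Ndufaf5, which modifies Ndufs7 during assembly, was called lower (-0.93) and none higher, with a median of -0.25. Complex II had 1 of 4 genes called lower (Sdhc, -0.66), complex III 2 of 8 (Cyc1, -0.75, and Uqcrh, -0.59), ATP synthase 2 of 14 (Atp5f1d, -0.62, and Atp5po, -0.60), the citric acid cycle 1 of 11 (Dlst, -0.59) and the mitochondrial ribosome 3 of 15 (Mrpl12, -0.95, Mrpl19, -0.77, and Mrps2, -0.73). Complex IV had 0 of 11 called, with a median of -0.11, and outer membrane and import genes 0 of 12, with -0.03.

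Markers of other cells and slow fibre genes were read on the same arrays. Fast fibre genes are not described here for Dicyclomine. Of 6 tendon markers, 0 were called, with a median change of -0.97, and their mean level lay between 6.42 and 6.69 with Dicyclomine and between 6.57 and 9.75 in the Water controls. Of 4 measured red blood cell markers, Hbb (-1.75) and Alas2 (-1.43) were called lower, with mean levels of 6.27 to 7.23 against 7.16 to 7.95. Of 5 endothelial markers 1, Kdr, was called lower (-1.06). Of 7 fat cell and 5 macrophage markers 0 were called, with medians of 0.03 for both. Slow fibre genes had 0 of 10 called and a median of 0.72, with mean levels of 10.44 to 11.45 inside the control range of 7.01 to 12.71. The part of these cells in the change of complex I genes was not tested. The markers of muscle fibres themselves had a median of -0.004, and the Gapdh difference of the 4 arrays, 0.15 to 0.22, was within that of the Water controls, 0.10 to 0.27.

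Etidronate, a bisphosphonate given in the same vehicle, showed low members at 3 d. Of 35 members 31 were below 0 over both times, none was called, and 1, Ndufa12, passed the second rule (-0.26, adjusted p = 0.0482), where 7.42% of all genes were lower. With batch as a block this change was -0.23 (adjusted p = 0.211), and no member passed. At 3 d, 2 members were called lower (2.01% of all genes were): Ndufs8 by -0.69 ± 0.15 (SE, limma adjusted p = 0.00462) and Ndufb8 by -0.67 ± 0.15 (SE, adjusted p = 0.00473). Ndufs8 was at 10.58, 10.03 and 11.10 at 3 d and at 11.19, 11.12 and 11.37 at 5 d. Ndufb8 was at 10.03, 9.38 and 10.41 at 3 d and at 10.51, 10.49 and 10.80 at 5 d. Replicate 2 at 3 d was the lowest array for both, and replicate 3 lay within the control range for both. The median change was -0.26 at 3 d and 0.02 at 5 d, and 0 members passed for the interaction (smallest adjusted p = 0.0704), with 16 at an unadjusted p under 0.05. Without replicate 2 at 3 d no member was called at 3 d and the median there was -0.14, and without replicate 3 there were 8. The Dicyclomine and Etidronate comparisons share their controls. At their lower times, 5 d and 3 d, Ndufb5 changed by -1.38 and -0.58, Ndufa12 by -0.98 and -0.51, Ndufs3 by -1.05 and -0.48 and Ndufc1 by -1.09 and -0.47. The times were picked for low members and the genes from those called with Dicyclomine, so the shared direction is a description only.

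Trimethadione, an anticonvulsant also given in Water, had 27 of 35 members below 0, none called and 2 past the second rule, where 1.45% of all genes were lower. Ndufs1 changed by -0.40 (adjusted p = 0.0272) and Ndufc2 by -0.34 (adjusted p = 0.015). Ndufs1 was at 11.47, 10.81 and 11.72 at 3 d and at 11.60, 11.61 and 11.56 at 5 d, so replicate 2 at 3 d was far the lowest. Against the 4 Water controls of the same study the changes were -0.28 (adjusted p = 0.897) and -0.22 (adjusted p = 0.898), and with batch as a block neither passed (adjusted p = 0.409 and 0.155). The mean of the tendon markers lay between 6.33 and 6.94 with Trimethadione and between 7.47 and 9.28 with Etidronate, where the Water controls lay between 6.57 and 9.75. Of 4 red blood cell markers, Hbb (-1.21) and Alas2 (-0.96) were called lower with Trimethadione, and both passed the second rule with Etidronate (-0.79 and -0.54), with which the endothelial marker Kdr was also called lower (-0.85). The part of these cells in the change of the members was not tested. The other 6 compounds given in Water had 0 members past either rule. Among them Phenytoin had 29 of 35 members below 0, with a median of -0.10 against -0.01 for all genes. With it 9 members had an unadjusted p under 0.05 (limma).

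Glyburide, a sulfonylurea, Atenolol, a beta blocker, and Levosulpiride, a dopamine antagonist, all in batch D, were compared with the same 12 CMC controls. The counts of 2 members called with Atenolol, 1 with Glyburide and 1 with Levosulpiride are near the shares of all genes given above. The values that follow therefore describe single members. In CMC controls Ndufb8 lay between 10.05 and 10.80 (median 10.60, n = 12). With Atenolol it was at 8.12, 10.29 and 10.15 at 3 d and at 9.95, 9.25 and 9.41 at 5 d. With Levosulpiride it was at 10.28, 10.00 and 9.75 at 3 d and at 9.46, 10.04 and 9.79 at 5 d. Of these values, 4 of 6 with Atenolol and 5 of 6 with Levosulpiride were below all controls. The Ndufb8 change was -0.98 ± 0.24 with Atenolol (SE, n = 6 against 12, adjusted p = 0.00803) and -0.62 ± 0.13 with Levosulpiride (SE, adjusted p = 0.00218). With Glyburide, Ndufb8 was at 9.47 and 9.44 at 3 d and at 10.16, 6.97 and 10.30 at 5 d, and its change of -1.22 ± 0.37 (SE, adjusted p = 0.0374) was not called.

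Ndufa6 lay between 11.41 and 12.35 in the CMC controls (median 11.83). It was at 10.73 and 11.05 at 3 d and at 11.49, 10.65 and 11.55 at 5 d with Glyburide, and at 10.52, 11.49, 11.53, 11.47, 11.15 and 11.33 with Atenolol, the first 3 at 3 d. The change of Ndufa6 was -0.80 ± 0.16 with Glyburide (SE, n = 5 against 12, adjusted p = 0.00364) and -0.62 ± 0.15 with Atenolol (SE, adjusted p = 0.00664). Some arrays of both compounds lay inside the control range. By the second rule Ndufa13, the subunit also known as GRIM-19, and Ndufb10 were lower with all 3 compounds, with changes of -0.47, -0.56 and -0.38 for Ndufa13 and -0.55, -0.74 and -0.47 for Ndufb10 (Atenolol, Glyburide, Levosulpiride), and Ndufs3 and Ndufa11 with Glyburide and Atenolol. In all, 6 members were lower by that rule with Glyburide (7.65% of all genes were), 6 with Atenolol (8.79%) and 4 with Levosulpiride (10.8%). Guanethidine, in the same batch but for 1 array, had 1 lower, Ndufb8 (-0.43, 8.61% of all genes). Ndufa7, a matrix arm subunit, ran the other way. It was higher with Chlorpropamide (0.36), Levosulpiride (0.32) and Guanethidine (0.30), and Ndufb4 was higher with Chlorpropamide and Guanethidine. These made 2 members higher of 35 with Chlorpropamide (6.65% of all genes), 2 with Guanethidine (10.7%) and 1 with Levosulpiride (12.9%). These counts, the 1 lower with Guanethidine and the 4 lower with Levosulpiride are near or below the shares of all genes. Their values describe single members. With batch as a block, or against other compounds of the same batches, no member passed the second rule in either direction with these 5 compounds.

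For these compounds batch and compound could be set apart only by way of other compounds. Hybridization period was confounded in the same way, since all arrays of Atenolol, Glyburide and Levosulpiride lay in another period than all CMC controls. With batch as a block, or against the other compounds of the same batches, 0 members were called with Atenolol, Glyburide or Levosulpiride. Few genes of any kind were then called, 5, 4 and 1 of all genes with the block, where 747, 583 and 778 had been, and 0 against the other compounds, so the count of 0 is not particular to the members. The Ndufb8 change then was -0.37 or -0.20 with Atenolol, -0.63 or -0.51 with Glyburide and -0.01 or 0.25 with Levosulpiride. Over the 27 arrays of batch D with a Gapdh difference of 1 or less, Ndufb8 lay between 9.25 and 10.41 (median 10.04), and over the 128 arrays outside batch D between 9.20 and 11.06 (median 10.54). Ndufa7, measured by 2 probe sets, changed by 0.18 with Chlorpropamide and 0.17 with Levosulpiride and Guanethidine when both were averaged, and by that measure passed neither rule there. Tendon markers were low in this batch too, with mean levels of 5.98 to 6.69 with Glyburide, 5.62 to 7.66 with Atenolol and 6.30 to 6.59 with Levosulpiride against 6.19 to 9.62 in CMC controls. The mean of the red blood cell markers was 6.77 to 7.17, 6.57 to 7.46 and 6.38 to 7.20 against 7.36 to 8.10. The part of these cells in the result was not tested.

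The 3 arrays with a large Gapdh difference had some very low members and some high ones. These arrays were Glyburide 5 d replicate 2 (3.02), Chlorpropamide 3 d replicate 2 (1.58) and Atenolol 3 d replicate 1 (1.26). Ndufb8 was at 6.97, 7.78 and 8.12 on them, and Ndufs1 at 8.70, 9.75 and 10.14. Over all arrays, less group means, the Gapdh difference had a correlation of -0.80 with Ndufa8, -0.79 with Ndufs1, -0.79 with Ndufb8 and 0.53 with Ndufs4. Over the 149 arrays of groups with no such array these were -0.13, -0.04, -0.29 and 0.21, so the relation rests mainly on those 3 arrays. Without the 3 arrays Ndufb8 was still called with Atenolol (-0.66) and Ndufa6 with Glyburide (-0.67), while Ndufa6 with Atenolol was not (-0.47). Ndufa13 with Glyburide was called as well (-0.59). The median Gapdh difference of batch D, 0.35, lay above all controls, so leaving out the 3 arrays does not even out RNA quality. Its part in these changes was not tested.

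**Figure D5:**
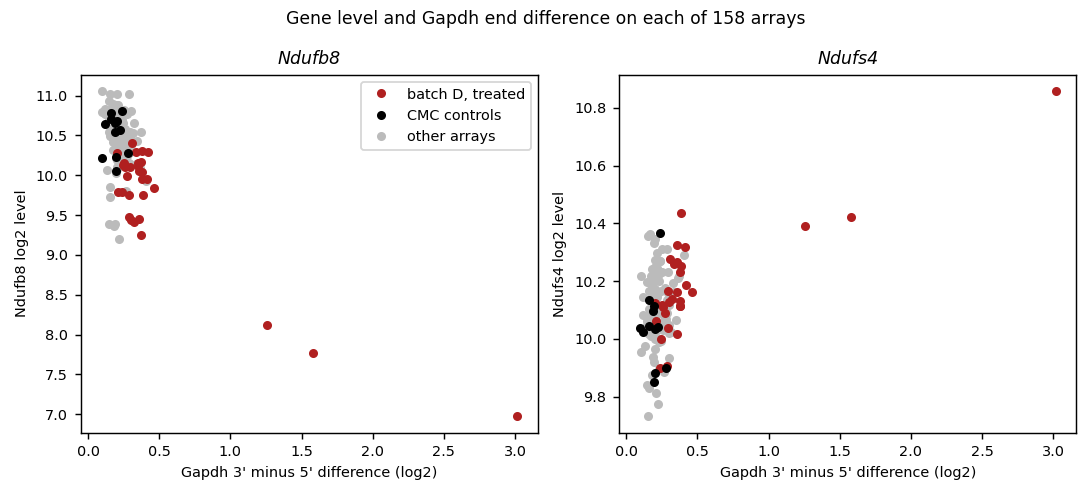
Log2 level of Ndufb8 (left) and Ndufs4 (right) on each array (vertical axes) against the Gapdh 3' minus 5' difference (horizontal axes, log2); red points are batch D, black the CMC controls and grey all others. The 3 arrays above 1 hold the lowest Ndufb8 levels, 6.97 to 8.12, while their Ndufs4 levels, 10.39 to 10.86, are among the highest.

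With some CMC compounds the members lay slightly above the controls without passing a test. All 35 members were above 0 with Azaribine, a pyrimidine antimetabolite (median 0.20, from 0.07 for Ndufa4 to 0.40 for Ndufa4l2), with Famotidine (median 0.11) and with Sulpiride (median 0.14). Within the batches that held both, 1 member was below 0 with Sulpiride. These 3 comparisons share the 12 CMC controls, 3 of which had low members. Without CMC control 5 d replicate 2, the lowest of them, the median fell to 0.16 with Azaribine, 0.06 with Famotidine and 0.10 with Sulpiride. No member passed the second rule, and 15, 0 and 4 members had an unadjusted p under 0.05. Spironolactone, a mineralocorticoid antagonist, had a median of 0.17 and 0 members past the second rule. With batch as a block 7 members were higher by that rule, where 3.20% of all genes were: Ndufa2 (0.34), Ndufa5 (0.34), Ndufa9 (0.32), Ndufb2 (0.27), Ndufb3 (0.25), Ndufs6 (0.22) and Ndufb4 (0.19). Within the batches that held both Spironolactone and CMC controls the median was 0.22, and 0 members passed.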

How the data were processed

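The authors deposited 1 log2 value per probe set and array, normalized by RMA per the submitters' processing notes, which corrects the background, equalises the arrays' distributions and summarises probes. Its version is not given in the sources used here. RMA compresses changes of dim transcripts. Probe sets were named by the platform annotation, and a gene was read by its single-symbol probe set of highest mean. Groups came from the labels. The title of 1 CMC control disagreed with its remaining labels on time (5 d against 3 d), and 3 d was used.

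Treated arrays were fitted with all controls of their vehicle, with time as a covariate, in limma 3.58.1 (R 4.3.3), tested on simulated data. P-values were adjusted over 14217 genes per compound and rest on the spread between animals with 1 array each. Among the controls this spread includes differences between studies and extraction batches. Each compound came from 1 study, so a difference of that study from the others is not measured in these fits. Only Dicyclomine, Dexchlorpheniramine and Trimethadione were also compared with controls of the same study. The number of arrays limits the precision. The interaction and the changes at each time came from the same arrays, and the changes at each time were added after seeing the data. Correlations used values less group means.

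Named were, per compound, the called members of smallest adjusted p (up to 6 per direction), the 6 called in most compounds, the member called in none with most probe sets (Ndufa7, with Ndufa9 and Ndufv3 tied), up to 6 members of the interaction, up to 4 called genes per other list and the 10 most alike genes. Other members shown were chosen after their values were seen. Members, lists and rules were chosen with earlier results of these data known. Alternatives were other controls, batch terms, probe set means, centring, a filter, the methods' t-test and leaving out arrays. Promoters came from RefSeq (GRCr8).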

Additional observations from a re-analysis of the deposited data

Results flagged for a closer look

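The difference between the Dicyclomine changes at 5 d and 3 d was tested as an interaction and passed an adjusted p of 0.05 (limma) for Ndufb5 (-0.96), Ndufc1 (-0.77), Ndufs3 (-0.74), Ndufb2 (-0.57), Ndufs1 (-1.06) and Ndufs7 (-0.68), the 6 members with the smallest adjusted p. All were lower at 5 d.

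Among the 9 genes called in any compound, 45 sets of controls of 4 to 10 arrays were searched for a sample far from the others, and 4 were found, where chance gives about 1 in 20. Ndufs1 was low, at 11.12, in CMC control 3 d replicate 4 and high, at 12.18, in Water control 5 d replicate 7. Ndufc1 was at 12.21 in CMC/SDS/Povidone control 5 d replicate 5, and Ndufc2 was high, at 12.48, in Water control 3 d replicate 3.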

How the results depend on the processing

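The fall with Dicyclomine kept its direction under each alternative run, with medians from -0.40 to -0.25 when single arrays were left out, but its count of called members, 8, did not. It was 5 with the batch block, 0 within shared batches, 0 against controls of the same study, 28 at an adjusted p of 0.05 at any fold, 0 at 3 d and 14 at 5 d, and 5 to 9 without single arrays (5 without 5 d replicate 2). At 5 d it was 9 (without replicate 2) to 15 without a treated array, and the interaction, 14, was 6 (without 3 d replicate 2 or 5 d replicate 2) to 16 (9 without 5 d replicate 1). The within-batch and same-study tests used fewer controls, 5 and 4, some of them the same arrays, and the cause was not tested further. With Etidronate the count was 1 at any fold and 2 at 3 d, with 0 to 8 there without a treated array, and an interaction count of 0 to 9 (9 without 3 d replicate 3).

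With Atenolol 2 members became 0 with the batch block, against other compounds of the same batches, by the methods' t-test and at 3 d or 5 d, 1 without arrays of a high Gapdh difference and 6 at any fold. It was 0 to 3 without single arrays, 0 without CMC control 3 d replicates 3, 5 or 6, 5 d replicates 1, 3 or 4, or Atenolol 5 d replicates 2 or 3, and 1 without CMC control 3 d replicates 1 or 2 or Atenolol 3 d replicate 1. With Glyburide 1 became 0 with the block, against other compounds and at 3 d or 5 d, 2 with probe set means, median centring, bright genes or without the Gapdh array, and 6 at any fold. It was 0 to 5 without single arrays, 0 without either 3 d replicate, 5 without CMC control 5 d replicate 2, and 2 or 3 without Glyburide 5 d replicates 2 or 3. With Levosulpiride 1 became 0 with the block, against other compounds and at 3 d or 5 d, 5 at any fold, and 0 to 1 without single arrays (0 without CMC control 5 d replicate 1, Levosulpiride 3 d replicate 3 or Levosulpiride 5 d replicate 1). Its Ndufb8 change turned to 0.25 against other compounds, and its median moved from -0.025 to 0.072 with the block. At any fold the count was 2 with Chlorpropamide, 3 with Guanethidine and 2 with Trimethadione. With the block the median moved from 0.04 to 0.11 with Oxybutynin, from -0.16 to -0.03 with Atenolol and from 0.05 to 0.16 with Chlorpropamide. The cause was not tested. The 17 compounds without calls had 0 called under every leave-one-out and scaling alternative. No paired analysis was possible because replicate numbers follow the order of deposit and pair no samples.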

Other observations

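Genes that ran most against the mean of the members over all arrays, less group means, were Rasgrp2 (correlation -0.61), Ddx51 (-0.60) and Iffo1 (-0.60). Srsf11, Srrm2, Gpatch8, Sf3b1 and Crtc2 followed at -0.59 each, then Hspbap1 (-0.585) and Syvn1 (-0.584). Marker lists of macrophages and fat cells had medians of -0.27 and -0.30, and that of tendon 0.30. The points share the normalization, and these values are a description with no test.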
